A study of Mus musculus with 25 samples.

Results

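The genes described here encode the subunits, activators and dedicated chaperones of the mouse proteasome, together with Nfe2l1, a transcription factor known to drive their synthesis. They were picked by name: every gene whose symbol in the array annotation starts with Psma, Psmb, Psmc, Psmd or Psme followed by a number, plus Nfe2l1, which gave 45 of the 18193 genes measured. Of these, 31 form the constitutive 20S core and its 19S cap (Psma1 to Psma7, Psmb1 to Psmb7, Psmc1 to Psmc6 and 11 Psmd genes) and are called core and cap subunits below. The others are 3 immunoproteasome subunits (Psmb8, Psmb9, Psmb10), 3 cap chaperones (Psmd5, Psmd9, Psmd10), 3 activators (Psme1, Psme3, Psme4), the tissue-specific subunits Psma8 and Psmb11, and Nfe2l1. Psmc3ip and Psme3ip1 match the naming rule only by spelling, since they encode proteins that bind a subunit or an activator, and are described apart. Psme2 shares its probe set with Psme2b and was not analysed here.

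RNA came from 3 lines of embryonic fibroblasts, with 1 Affymetrix mouse genome array per culture plate and 25 arrays in all. The wild-type line was Tsc2+/+ p53-/-, the Tsc2-null line was Tsc2-/- p53-/- and came from a littermate of it, and the Tsc1-null line was Tsc1-/- with intact p53 and had been immortalized by serial 3T3 passage. Plates at 70% confluence were deprived of serum for 24 h, either with the solvent DMSO (vehicle, 3 arrays in each line) or with 20 nM rapamycin for 2, 6, 12 or 24 h (2 arrays per time, in the null lines only). Wild-type cells under rapamycin were not analysed here. Each genotype is 1 line, so genotype cannot be told apart from line, and p-values measure only the spread between plates. Tsc1-null and wild-type cells also differ in p53.

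The 26S proteasome degrades proteins tagged with ubiquitin. Its 20S core is a barrel of alpha and beta rings with the proteolytic sites on Psmb5, Psmb6 and Psmb7, and its 19S cap recognises the tag, removes it and unfolds the substrate with a ring of ATPases (the Psmc proteins). Cells exposed to interferon replace the 3 proteolytic subunits by Psmb8, Psmb9 and Psmb10, forming the immunoproteasome, which is known for making peptides for presentation on class I molecules. Nfe2l1 is a membrane-bound factor of the endoplasmic reticulum that, once released and cut, binds antioxidant response elements in promoters of proteasome genes in mouse and human cells. Tsc1 and Tsc2 form a complex that restrains the kinase mTORC1, and rapamycin inhibits mTORC1.

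Because Nfe2l1 acts through that element, the promoters of its reported target genes were read for it. RefSeq windows (GRCm38.p6, 250 bases before the start site and 50 after it, 300 in all) were matched for 38 of the 45 genes and 25 of the 31 core and cap subunits. The letters TGACNNNGC, searched on both strands, were present for 4 of those 25 genes (16%) and for 3781 of 27025 mouse genes (14.0%). The matches were in Psmb5, Psmb6, Psmc6 and Psmd12, and outside the core and cap in Psmd9 and Psme4. That made 6 of the 38 matched genes (15.8%), and both shares are near that of all genes. Windows of 80 bases around them are printed in the direction of the gene, since these are the members whose promoter holds the letters the factor is known for, with the match in capitals.
Psmb5 (chr14:54617999-54618078, minus strand, match on the gene's strand): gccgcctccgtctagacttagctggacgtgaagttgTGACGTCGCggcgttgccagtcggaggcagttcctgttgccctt
Psmb6 (chr11:70525312-70525391, plus strand, match on the gene's strand): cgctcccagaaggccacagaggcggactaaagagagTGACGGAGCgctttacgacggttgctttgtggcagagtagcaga
Psmc6 (chr14:45329574-45329653, plus strand, match on the other strand): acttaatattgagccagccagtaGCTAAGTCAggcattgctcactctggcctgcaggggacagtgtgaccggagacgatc
Psmd12 (chr11:107479278-107479357, plus strand, match on the other strand): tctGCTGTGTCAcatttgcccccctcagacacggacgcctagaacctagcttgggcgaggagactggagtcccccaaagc
Psmd9 (chr5:123228123-123228202, plus strand, match on the gene's strand): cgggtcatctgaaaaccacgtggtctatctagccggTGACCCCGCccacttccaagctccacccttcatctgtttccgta
Psme4 (chr11:30771732-30771811, plus strand, match on the other strand): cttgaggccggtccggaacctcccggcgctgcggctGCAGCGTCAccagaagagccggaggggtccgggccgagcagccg

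The interferon-stimulated response element, the letters that interferon-induced factors are known to bind, was searched on both strands as GAAA, any 2 bases and GAAA again. It was present for 4 of the 38 matched genes (10.5%; Psmb3, Psmd4, Psmd9 and Psme1) and for 3.99% of all genes, and for none of Psmb8, Psmb9 and Psmb10 in these windows. The window of Psme1 is shown because this gene is described with the immunoproteasome below.
Psme1 (chr14:55578464-55578543, plus strand, match on the other strand): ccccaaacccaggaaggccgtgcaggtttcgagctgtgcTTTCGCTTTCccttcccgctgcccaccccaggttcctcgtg
These matches describe letters in a window and do not show binding. Among the 25 matched core and cap subunits 2 held this second motif (8%).

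Values below are deposited log2 expression values, and differences are log2 differences with the standard error of the limma fit. A member was called when its p-value, adjusted over all 18193 genes by the Benjamini-Hochberg method, was under 0.05. Results with the next brightest probe set come from a fit of all 34945 probe sets naming 1 gene, with p-values adjusted over those. Shares of all genes refer to adjusted calls, and none was computed for unadjusted p-values. Every refit that left out 1 array of a comparison called fewer of all genes in it than the full fit. Replicate arrays correlated at 0.996 to 0.998 across genes. Tsc2 lay at 9.67 to 9.74 on the 3 wild-type arrays and at 7.85 to 9.59 on the 11 Tsc2-null arrays, and Tsc1 at 8.11 to 8.33 and at 6.51 to 7.38 on the 11 Tsc1-null arrays. The labels do not say which part of each gene was deleted, which limits this check. The mean of 12 fibroblast markers was 12.43 to 12.52 in wild type and 11.48 to 12.07 across the null-line arrays, while 4 or 5 of 8 leukocyte markers and 4 of 5 endothelial markers lay among the dimmest 40% of genes (log2 under 6.67). The mean of 6 epithelial markers was 6.86 to 6.95 in wild type, 7.33 to 7.39 in Tsc2-null vehicle, 8.08 to 8.13 after 24 h of rapamycin in Tsc2-null, and 6.13 to 6.39 across the Tsc1-null arrays. The fibroblast and epithelial means moved with line and with rapamycin, and their part in the results was not tested. In such bulk samples fewer cells of a type and less RNA per cell cannot be told apart. The 31 core and cap subunits were all bright, each above the 85th percentile of mean signal.

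Loss of Tsc2 went with higher mRNA for nearly the whole constitutive particle. In Tsc2-null vehicle cells 28 of the 31 core and cap subunits were higher than in wild type and 1 was lower, with a median difference of 0.46. Of all genes tested, 23.6% were called higher and 21.3% lower, and their median difference was -0.01. All 7 alpha subunits (0.23 to 0.70), all 7 beta subunits (0.27 to 0.85) and all 6 ATPases (0.17 to 0.55) were called higher. The non-ATPase part of the cap was mixed, with 8 of 11 higher, 1 lower and 2 not called.

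Psmb3, a structural beta subunit, showed the largest rise in the core. Its values were 11.51, 11.53 and 11.60 on the wild-type arrays and 12.36, 12.36 and 12.46 on the Tsc2-null arrays, a difference of 0.85 ± 0.061 (1.80-fold, adjusted p = 7.76e-11). The groups lay far apart. Psma2, an alpha ring subunit, differed by 0.70 ± 0.068, and Psmd12, a scaffold of the 19S lid, by 0.70 ± 0.056 with wild-type values of 11.41, 11.35 and 11.37 against 12.08, 12.06 and 12.08. The proteolytic subunits rose by 0.32 ± 0.059 (Psmb5), 0.59 ± 0.066 (Psmb6) and 0.66 ± 0.062 (Psmb7).

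Psmd8, a lid subunit, was the exception. It read 11.67, 11.69 and 11.68 in wild type and 10.77, 10.83 and 10.97 in Tsc2-null cells, a fall of 1.77-fold (difference -0.82 ± 0.066, adjusted p = 4.01e-10). Psmd7, another lid subunit that partners the deubiquitinase Psmd14, had a difference of -0.09 ± 0.067, and Psmd6 one of 0.12 ± 0.061, and neither was called. The call for Psmc4, at 0.17 ± 0.064 the smallest among the subunits called higher (adjusted p = 0.0333), was lost without wild-type array 2 or 3 (adjusted p = 0.0941 and 0.0696) or Tsc2-null vehicle array 2 or 3 (adjusted p = 0.0791 and 0.107).

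In the Tsc1-null line mRNA for the same particle was shifted less evenly. There 19 of 31 core and cap subunits were higher than in wild type and 4 were lower, with a median difference of 0.27, where 21.3% of all genes were called higher and 20.8% lower. The beta ring was raised in 6 of 7 members, the alpha ring in 4 of 7, the ATPases in 3 of 6 and the non-ATPases in 6 of 11. Psma6, Psmc1, Psmd7 and Psmd8 were the subunits called lower, with differences of -0.33 ± 0.075, -0.25 ± 0.060, -0.37 ± 0.067 and -0.35 ± 0.066.

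The rise was large for a few subunits. Psmd4, the ubiquitin receptor of the cap, read 12.02, 11.94 and 11.93 in wild type and 13.11, 13.17 and 13.06 in Tsc1-null cells, a difference of 1.15 ± 0.059 (2.22-fold, adjusted p = 2.54e-13). Psmb4, a structural beta subunit, read 12.74, 12.76 and 12.73 against 13.63, 13.66 and 13.84 (0.97 ± 0.063). Psmd13, a lid subunit, differed by 0.71 ± 0.085. These genes stood well clear of wild type on all 3 arrays, while Psmb2, Psmc2, Psmc6, Psma3, Psma7, Psmd2, Psmd3 and Psmd6 were not called.

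**Figure D1:**
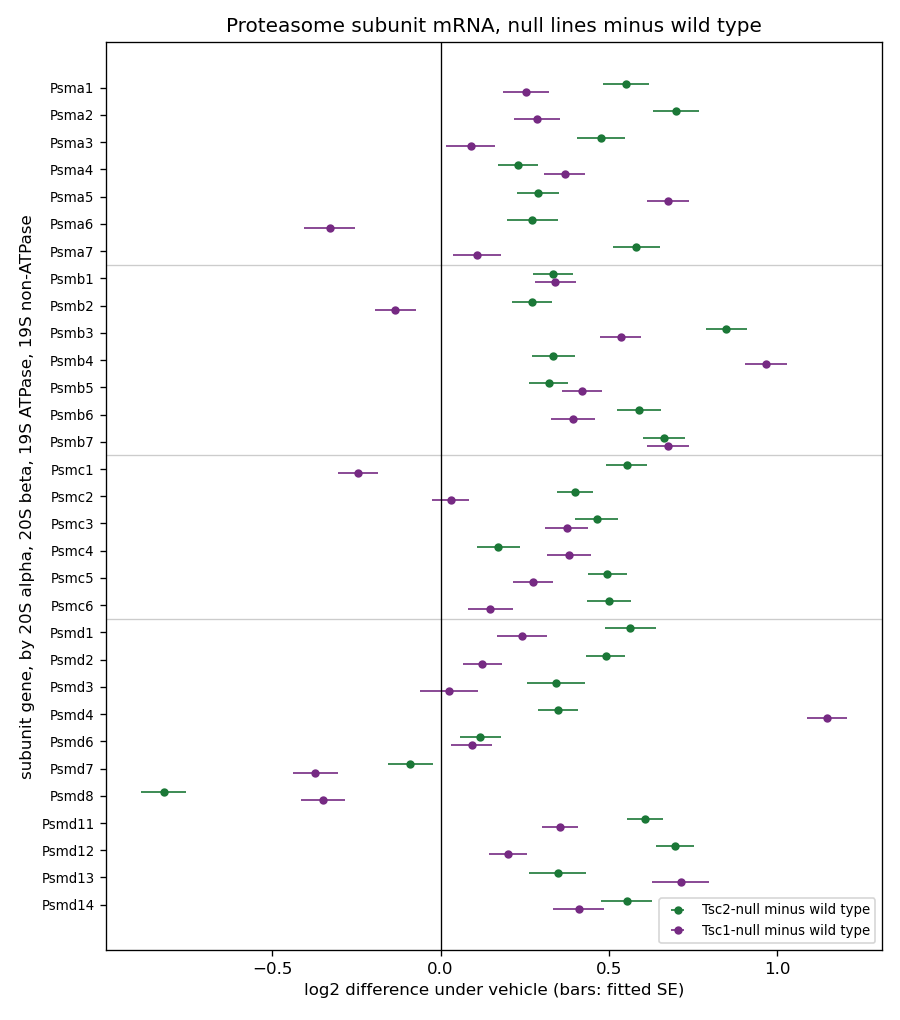
Log2 difference of each of the 31 core and cap subunits under vehicle, Tsc2-null minus wild type (green) and Tsc1-null minus wild type (purple), with bars for the fitted standard error and 3 arrays in each line. Green points lie right of 0 for all subunits but Psmd7 and Psmd8, and purple points spread from -0.37 (Psmd7) to 1.15 (Psmd4).

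The null lines were set against each other directly, in arrays that both comparisons above also use. Tsc1-null cells had lower levels than Tsc2-null cells for 18 of 31 core and cap subunits and higher levels for 6, with a median of -0.25, where 22.7% of all genes were called lower and 20.7% higher. With the next brightest probe set, which 18 of the 31 subunits have, the median was -0.089. Psma1, Psmd2 and Psmd7, called lower here, then read 0.11, 0.014 and 0.13. Psmc1, an ATPase, was lowest by this measure: it read 10.80, 10.79 and 10.83 in Tsc2-null and 10.00, 9.96 and 10.07 in Tsc1-null cells (-0.80 ± 0.060). Psma6 differed by -0.60 ± 0.075 and Psmd12 by -0.50 ± 0.056. The subunits with higher levels in Tsc1-null cells were Psmd4 (0.80 ± 0.059), Psmb4 (0.63 ± 0.063), Psmd8 (0.47 ± 0.066), Psma5 (0.39 ± 0.062), Psmd13 (0.37 ± 0.085) and Psmc4 (0.21 ± 0.064). Psmc4 was no longer called without Tsc1-null vehicle array 2 (adjusted p = 0.0617). The same test called Psmb6 lower (-0.20 ± 0.066), a call that was lost without Tsc1-null vehicle array 1 or 2 (adjusted p = 0.102 and 0.0536) or Tsc2-null vehicle array 3 (adjusted p = 0.106).

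Rapamycin lowered mRNA for the particle slowly in Tsc2-null cells. After 2 h no core or cap subunit was called in either direction (1.19% of all genes were lower and 1.01% higher), and 0 of 31 had an unadjusted p under 0.05. After 6 h 6 were lower and none higher (9.69% and 11.6% of all genes), after 12 h 26 were lower and none higher (17.6% and 16.4%), and after 24 h 30 were lower and 1 was higher (18.1% and 17.4%). The medians over the 31 subunits were 0.00, -0.07, -0.37 and -0.55 at these times, where the median of all genes was between -0.06 and 0.00. The 6 subunits called at 6 h were the cap members Psmc4, Psmc5, Psmd6, Psmd12, Psmd13 and Psmd14, and the difference between cap and core was not tested. Without the second 6 h array Psmc4 and Psmd14 were the 2 of them still called. With the next brightest probe set, where there was one, 17 in place of 26 were lower at 12 h. The F test over the 4 times called 29 of 31 core and cap subunits, and 39.9% of all genes.

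Psmd14, the deubiquitinase that removes the ubiquitin chain, showed the largest fall. It read 12.48, 12.51 and 12.69 under vehicle, 12.51 and 12.57 at 2 h, 12.16 and 12.13 at 6 h, 11.61 and 11.52 at 12 h and 11.43 and 11.36 at 24 h. The 24 h difference was -1.16 ± 0.084 (2.24-fold lower, adjusted p = 2.65e-10), and no treated array from 6 h on reached the vehicle range. Psmc4, an ATPase, fell from 10.51, 10.56 and 10.59 to 9.70 and 9.60 at 24 h (-0.90 ± 0.072). Psma1, an alpha subunit, fell from 11.60, 11.61 and 11.57 to 10.61 and 10.80 (-0.89 ± 0.077), and Psmd12 fell by 0.86 on the log2 scale.

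Among the proteolytic subunits the 24 h falls in Tsc2-null cells were 0.39 for Psmb5, 0.45 for Psmb6 and 0.55 for Psmb7 on the log2 scale. Psmd8 again went the other way: it was the subunit called higher at 24 h, at 11.09 and 11.01 against 10.77, 10.83 and 10.97 under vehicle (0.20 ± 0.073, adjusted p = 0.0390). Among the falls, those of Psma6 (-0.37), Psmb1 (-0.19) and Psmd3 (-0.34) lost their call without 1 of the 24 h arrays (adjusted p = 0.0506, 0.213 and 0.243, without the first, second and second), and Psmb1 also without vehicle array 3 (adjusted p = 0.136). The Psmd8 call was lost without either 24 h array (adjusted p = 0.243 and 0.0603) or without vehicle array 1 or 2 (adjusted p = 0.153 and 0.104).

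In Tsc1-null cells mRNA for the particle also fell. By 24 h each of the 31 core and cap subunits, read from its brightest probe set, was lower. No core or cap subunit was called at 2 h, where 1.32% of all genes were lower and 1.95% higher. There 3 of 31 had an unadjusted p under 0.05, and the share of all genes at that level was not computed. At 6 h 12 were lower, 4 in the 20S rings and 8 in the cap, and none higher (13% and 9.5% of all genes), at 12 h 26 were lower and none higher (11.7% and 12%), and at 24 h 31 of 31 were lower (18% and 11.6%). Medians over the 31 were -0.05, -0.16, -0.29 and -0.58. Fewer subunits were called lower without the second 6 h array or without the first 12 h array, each of which leaves 1 array in its group. Fewer of all genes were called in such refits too. Read from the next brightest probe set where there was one, 15 were lower at 12 h and 20 at 24 h, and Psmb1 was called higher at 24 h (0.22, adjusted p = 0.0444). These counts include the 13 subunits with 1 probe set, read from it again. The F test over the 4 times called 30 of 31 core and cap subunits, and 38.1% of all genes.

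Psmd14 was again the member that fell most. Its values were 12.26, 12.41 and 12.58 under vehicle, 12.26 and 12.33 at 2 h, 11.86 and 11.80 at 6 h, 11.69 and 11.64 at 12 h and 11.38 and 11.49 at 24 h, a 24 h difference of -0.98 ± 0.084 (adjusted p = 7.43e-09). From 6 h on its arrays lay below all vehicle arrays. Psmd13 fell by 0.87, Psmb3 by 0.72 and Psma7, an alpha subunit, by 0.71 on the log2 scale. The smallest 24 h falls were those of Psmc3 (-0.23 ± 0.071), Psmd4 (-0.23 ± 0.066) and Psmd8 (-0.23 ± 0.073). All 3 lost their call without the first 24 h array (adjusted p = 0.141, 0.0759 and 0.289), and Psmc3 and Psmd8 also without vehicle array 3 (adjusted p = 0.0651 and 0.0576). Psma6 (-0.30 ± 0.084) lost its call without the first 24 h array (adjusted p = 0.217) or vehicle array 3 (adjusted p = 0.0566).

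**Figure D2:**
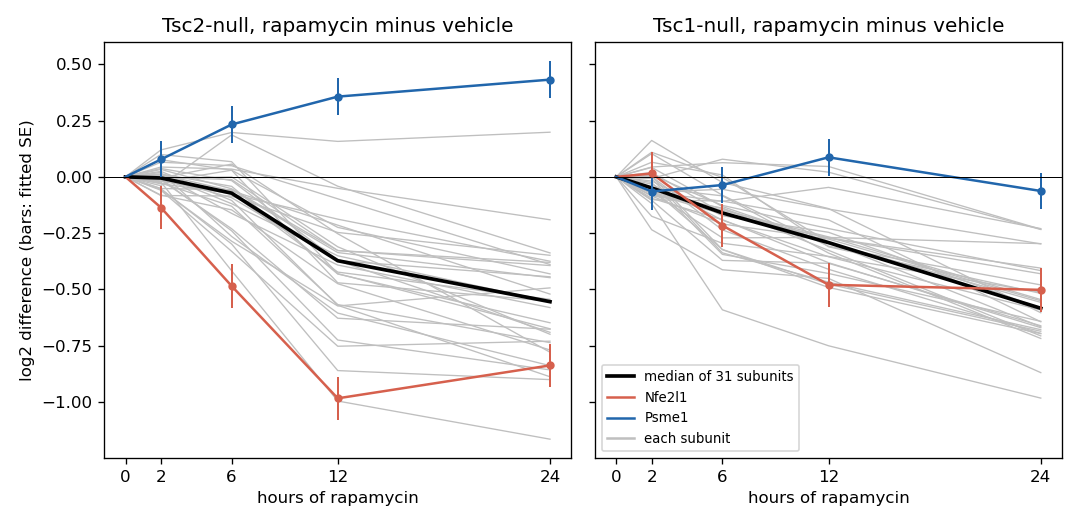
Log2 difference from the vehicle of the same line against hours of rapamycin, for Tsc2-null (left) and Tsc1-null cells (right). Grey lines are the 31 core and cap subunits, the black line their median (-0.55 and -0.58 at 24 h), red Nfe2l1 and blue Psme1, with bars for the fitted standard error. The median declines from 6 h on in both lines, while Psme1 climbs to 0.43 in Tsc2-null cells and stays near 0 in Tsc1-null cells.

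The sizes of the 24 h effects were compared between the lines with an interaction test. It called 3 of 31 core and cap subunits, 1 higher and 2 lower, and 20.2% of all genes, 8.13% higher and 12% lower. It called 6 subunits with 64 added before the log and 5 with the next brightest probe set, where there was one. Psma1 fell less in Tsc1-null cells (interaction 0.46 ± 0.11, adjusted p = 0.00360). Psmd8 differed by -0.43 ± 0.10 (adjusted p = 0.00402) and Psma7 by -0.32 ± 0.11 (adjusted p = 0.0493). The call for Psma7 was lost without the first Tsc1-null 24 h array (adjusted p = 0.262), either Tsc2-null 24 h array (0.119 and 0.100), Tsc1-null vehicle array 2 or 3 (0.0854 and 0.121) or Tsc2-null vehicle array 1 or 2 (0.124 and 0.0796). The other 28 were not called, with interactions from -0.24 (Psmd3) to 0.26 (Psmc4), of which Psmd3 was called without the second Tsc1-null 24 h array (adjusted p = 0.0292) and Psmc4 without the first (adjusted p = 0.0241).

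Levels after 24 h of rapamycin were also set beside untreated wild type, in comparisons that share arrays with those above. In Tsc2-null cells 15 of 31 core and cap subunits were then lower than in wild-type vehicle cells and 1 higher (20.8% of all genes in each direction), with a median of -0.12. Fewer were lower whenever 1 of the arrays compared was left out, and Psmb4 and Psmd12 lost their call each time. Psma2, at 0.26, was the one still higher, and Psmd7, at -0.83, lay furthest below. The call for Psma2 was lost without the second 24 h array (adjusted p = 0.0935). In Tsc1-null cells 20 were lower and 3 higher (21.7% and 16.8%), with a median of -0.40. Here too fewer were lower whenever 1 array was left out. Psmd11 lost its call each time, and Psmb3 without either 24 h array or without wild-type array 2 or 3. The next brightest probe set, read where there was one, gave 13 lower and a median of -0.15. Psmd4, Psmb4 and Psmb7 stayed above wild type by 0.92, 0.56 and 0.26, and Psmd7 lay 2.05-fold below it (-1.03).

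**Figure D3:**
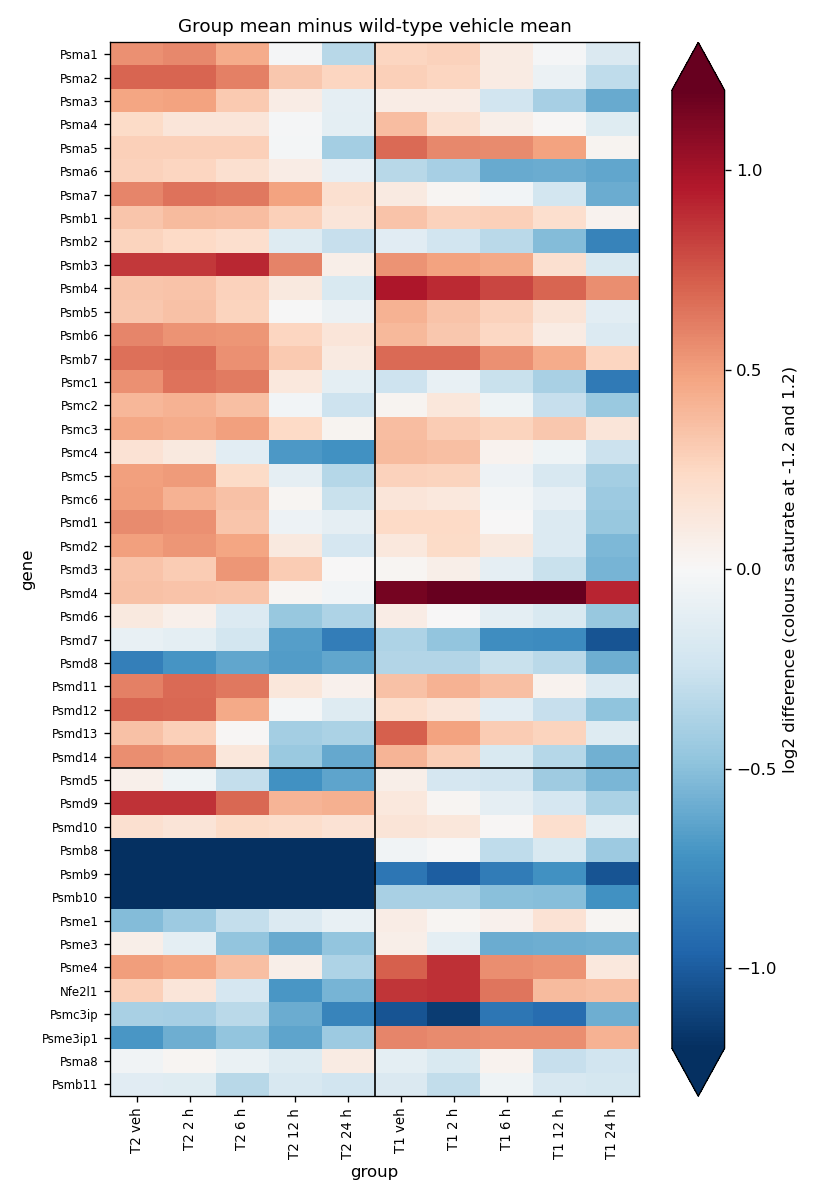
Group mean minus the wild-type vehicle mean, on the log2 scale, for the 45 genes (rows) in the 10 null-line groups (columns), T2 for Tsc2-null and T1 for Tsc1-null, veh for vehicle and hours for rapamycin. Colours saturate at -1.2 and 1.2. Most core and cap rows, above the horizontal line, are red under vehicle and paler or blue at 24 h. Psmd8 is blue throughout and Psma6, Psmc1 and Psmd7 start blue in Tsc1-null cells. The rows of Psmb8, Psmb9 and Psmb10 are dark blue at every time in Tsc2-null cells, and Psmd4 is the reddest row in Tsc1-null cells.

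Nfe2l1 mRNA was higher in both null lines and fell under rapamycin in both. It read 10.40, 10.38 and 10.44 in wild type, 10.73, 10.66 and 10.68 in Tsc2-null and 11.42, 11.30 and 11.09 in Tsc1-null vehicle cells, with no overlap between lines. The difference from wild type was 0.28 ± 0.087 for Tsc2-null (1.22-fold, adjusted p = 0.00928) and 0.86 ± 0.087 for Tsc1-null cells (1.82-fold, adjusted p = 1.94e-08). Tsc1-null cells exceeded Tsc2-null cells by 0.58 ± 0.087 (adjusted p = 6.70e-06).

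Under rapamycin Nfe2l1 in Tsc2-null cells read 10.52 and 10.59 at 2 h, 10.24 and 10.17 at 6 h, 9.77 and 9.64 at 12 h and 10.00 and 9.71 at 24 h. The 6, 12 and 24 h groups lay below all vehicle arrays, and the differences of -0.48, -0.98 and -0.84 were called (adjusted p = 0.000767, 4.86e-08 and 3.19e-07). The 2 h difference of -0.14 was not. In Tsc1-null cells it read 11.26 and 11.31 at 2 h, 11.10 and 11.01 at 6 h, 10.76 and 10.82 at 12 h and 10.64 and 10.89 at 24 h. There the differences of -0.48 at 12 h and -0.50 at 24 h were called (adjusted p = 0.000680 and 0.000297), and -0.22 at 6 h was not (adjusted p = 0.111), although it was called without vehicle array 3 (adjusted p = 0.0323).

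The interaction at 24 h was 0.34 ± 0.14 and missed the threshold (adjusted p = 0.0942). It passed without the first Tsc1-null 24 h array (0.0372), the first Tsc1-null vehicle array (0.0351) or the first Tsc2-null 24 h array (0.0263). After 24 h Nfe2l1 in Tsc2-null cells was 0.55 below wild-type vehicle cells on the log2 scale (difference -0.55 ± 0.097), whereas in Tsc1-null cells it was still above (0.36 ± 0.097, adjusted p = 0.00437). The latter call was lost without the second 24 h array (adjusted p = 0.136).

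**Figure D4:**
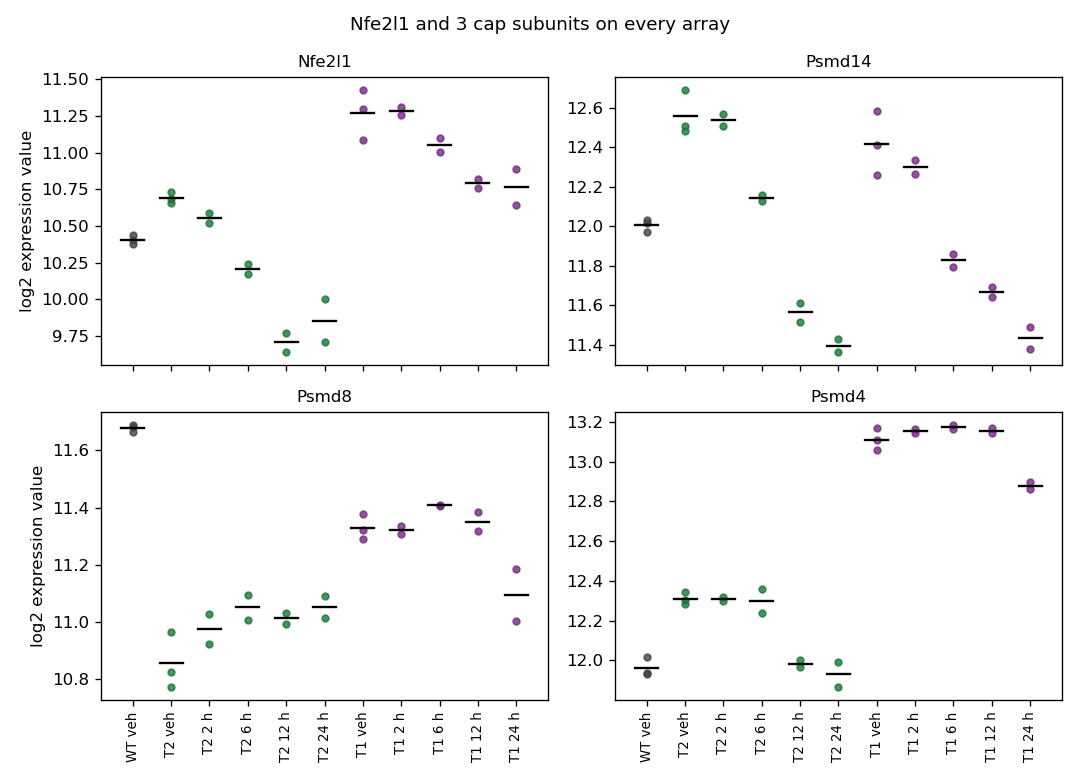
Log2 expression value on every array (points) with group means (lines) for Nfe2l1, Psmd14, Psmd8 and Psmd4, by group: WT wild type, T2 Tsc2-null, T1 Tsc1-null, veh vehicle, hours of rapamycin otherwise. Nfe2l1 and Psmd14 lie below their vehicle means from 6 h on in both lines, with Nfe2l1 lowest at 12 h in Tsc2-null cells. Psmd8 is highest in wild type, and Psmd4 is near 13.1 in Tsc1-null cells until 12 h.

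The immunoproteasome subunits did not follow the constitutive ones. All 3 were lower in Tsc2-null than in wild-type cells, with differences of -2.47 (Psmb8), -1.37 (Psmb9) and -1.98 (Psmb10), while the constitutive counterparts Psmb5, Psmb6 and Psmb7 were higher. Psmb8 read 9.04, 8.82 and 8.73 in wild type and 6.28, 6.18 and 6.71 in Tsc2-null cells, a 5.55-fold difference (-2.47 ± 0.12, adjusted p = 1.34e-13). Psmb10 read 11.56, 11.43 and 11.48 against 9.48, 9.39 and 9.66 (3.93-fold, -1.98 ± 0.090). Psmb9 read 8.05, 7.68 and 7.63 against 6.34, 6.49 and 6.41 (-1.37 ± 0.12). The groups were far apart for each gene, and the Tsc2-null means of Psmb8 and Psmb9 fell within the dimmest 40% of genes, where arrays resolve little. Leukocytes are rich in these subunits, and the mean of the 8 leukocyte markers lay between 6.29 and 6.55 across all arrays. Of these markers 1 was called higher and 1 lower in Tsc2-null than in wild-type cells (23.6% and 21.3% of all genes). Any part of leukocytes in the differences was not tested.

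Tsc1-null cells kept more of these transcripts. Psmb8 read 8.86, 8.80 and 8.81, overlapping wild type (-0.04 ± 0.12, adjusted p = 0.852). Psmb10 read 11.14, 11.15 and 11.01 and was lower than wild type by 0.39 on the log2 scale (difference -0.39 ± 0.090, adjusted p = 0.00105). Psmb9 read 6.99, 6.77 and 7.001 (-0.86 ± 0.12). All 3 were higher in Tsc1-null than in Tsc2-null cells, by 2.43 ± 0.12, 0.51 ± 0.12 and 1.59 ± 0.090.

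Under rapamycin the calls were few and differed by line. In Tsc2-null cells none was called at 24 h (0.27, -0.06 and 0.15 for Psmb8, Psmb9 and Psmb10, limma), and 0 of 3 had an unadjusted p under 0.05. Psmb8 was called there without vehicle array 3 (adjusted p = 0.0137). Against wild-type vehicle cells the 24 h differences were -2.21, -1.43 and -1.82. Psmb9 alone was called at 12 h (-0.46 ± 0.14, adjusted p = 0.0105), a call that was lost without the second 12 h array (adjusted p = 0.0728). In Tsc1-null cells Psmb10 was lower at 24 h (-0.34 ± 0.10, adjusted p = 0.0122), but not without the first 24 h array (adjusted p = 0.0987). Psmb8 was lower at 24 h (-0.40 ± 0.14, adjusted p = 0.0339), a call lost when any 1 of the 5 arrays compared was left out (adjusted p from 0.0579 to 0.198). The 24 h effects differed between lines for Psmb8 (-0.66 ± 0.20, adjusted p = 0.0186) and Psmb10 (-0.49 ± 0.14, adjusted p = 0.0150). Both interactions were lost without the first Tsc1-null 24 h array (adjusted p = 0.0766 and 0.0614) or the first Tsc2-null 24 h array (adjusted p = 0.116 and 0.0892), and that of Psmb8 also without Tsc2-null vehicle array 2 (adjusted p = 0.0572). With the next brightest probe set of Psmb8 the Tsc1-null 24 h difference was 0.14 and the interaction 0.072, neither of them called.

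**Figure D5:**
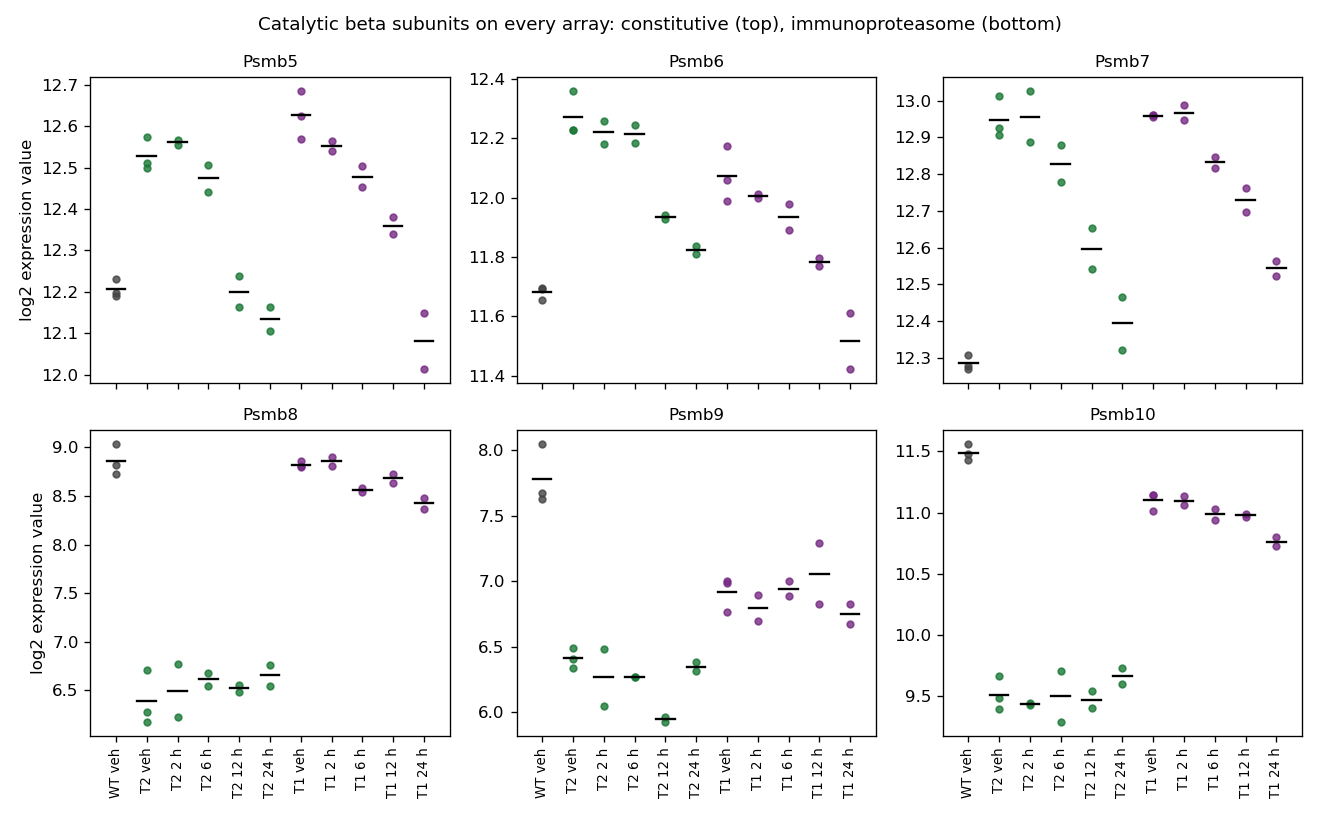
Log2 expression value on every array (points) with group means (lines) for the constitutive proteolytic subunits Psmb5, Psmb6 and Psmb7 (top) and their immunoproteasome counterparts Psmb8, Psmb9 and Psmb10 (bottom), with groups abbreviated as WT wild type, T2 Tsc2-null, T1 Tsc1-null, veh vehicle and hours of rapamycin. The top genes are higher in null than in wild-type vehicle cells and decline with time, while the bottom genes are lowest in all Tsc2-null groups.

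Genes that work with the immunoproteasome in class I presentation (transporters, class I chains, their loading factors and their interferon-linked regulators) were listed as well. Of 15 listed genes 13 were measured. In Tsc2-null against wild-type vehicle cells 11 were lower and 1 higher (median -1.32, where 21.3% of all genes were lower and 23.6% higher), and in Tsc1-null cells 7 were lower and 3 higher (median -0.47, where 20.8% were lower and 21.3% higher). H2-D1, a class I heavy chain, had the largest difference of the list, at -4.51 ± 0.077 in Tsc2-null cells and -3.43 ± 0.077 in the Tsc1-null line. Nlrc5, the transactivator of class I genes, differed by -3.44 and -3.00. H2-K1, another heavy chain, differed by -2.35 ± 0.075 in Tsc2-null cells. After 24 h of rapamycin 3 were lower and 5 higher in Tsc2-null cells (median -0.04) and 4 were lower and none higher in Tsc1-null cells (median -0.08), where 18.1% and 18% of all genes were lower and 17.4% and 11.6% higher. In Tsc2-null cells Stat2, an interferon-signalling factor, fell by 1.02 on the log2 scale and Irf1, an interferon-regulated factor, rose by 0.56. In Tsc1-null cells Pdia3 and Erap1, a folding enzyme of peptide loading and a peptide-trimming protease, fell by 0.41 and 0.53.

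The activators behaved as separate genes. Psme1, the alpha subunit of the PA28 activator that accompanies the immunoproteasome, was lower in Tsc2-null cells, at 10.82, 10.86 and 11.02 against 11.49, 11.37 and 11.39 (-0.52 ± 0.073, adjusted p = 2.61e-06). In Tsc1-null cells it overlapped wild type (0.09 ± 0.073). Rapamycin raised it in Tsc2-null cells by 0.23, 0.36 and 0.43 at 6, 12 and 24 h, to 11.37 and 11.29 at 24 h, where it no longer differed detectably from wild type (-0.09 ± 0.081, adjusted p = 0.464). The 6 h call (adjusted p = 0.0454) was lost without the first 6 h array (0.554) or vehicle array 1 or 2 (0.157 and 0.135). In Tsc1-null cells the 24 h difference was -0.06 ± 0.081, and the interaction was called (-0.49 ± 0.12, adjusted p = 0.00315).

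Psme4, the nuclear activator PA200, exceeded its wild-type level under vehicle (0.50 ± 0.079 for Tsc2-null, 0.71 ± 0.079 for Tsc1-null) and was lower after 24 h of rapamycin, from 11.35, 11.39 and 11.21 to 10.47 and 10.42 in Tsc2-null cells (-0.87 ± 0.088) and from 11.61, 11.55 and 11.43 to 10.91 and 10.97 in Tsc1-null cells (-0.59 ± 0.088). Its vehicle groups and 24 h groups did not overlap in either line. Psme3, the nuclear activator PA28gamma, was not called between lines (0.07 ± 0.074 in both null lines against wild type) and fell by 0.54 and 0.65 on the log2 scale at 24 h.

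The chaperones that assemble the base of the cap differed among themselves. Psmd9 was the member with the largest rise in Tsc2-null cells, from 9.19, 9.15 and 9.01 to 9.92, 9.96 and 10.08 (0.87 ± 0.064, adjusted p = 1.10e-10), and had a difference of 0.13 ± 0.064 in Tsc1-null cells, which was not called. It fell by 0.44 and 0.51 on the log2 scale after 24 h of rapamycin in the Tsc2-null and Tsc1-null lines. Psmd5 was not called in either null line under vehicle (0.06 and 0.07) but fell by 0.69 and 0.61 at 24 h. Psmd10, also known as gankyrin, was called in Tsc1-null cells at 24 h (-0.27 ± 0.091, adjusted p = 0.0248) but not without the first 24 h array (adjusted p = 0.256) or vehicle array 3 (adjusted p = 0.122).

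Psma8, the alpha subunit of the spermatogenic proteasome, and Psmb11, the beta subunit of the thymic proteasome, were dim on every array. Psma8 lay between 4.50 and 5.10 and Psmb11 between 4.60 and 5.11, below the bound of the dimmest 40% of genes, and neither was called in any comparison made here. Psmc3ip, a meiotic recombination factor, was lower than wild type in both null lines (-0.39 ± 0.093 and -1.04 ± 0.093). With rapamycin for 24 h it fell by 0.40 on the log2 scale in Tsc2-null cells and rose by 0.45 in Tsc1-null cells (interaction 0.85, adjusted p = 0.000178). Psme3ip1, which encodes a protein that binds PA28gamma, was lower in Tsc2-null cells (-0.70 ± 0.065) and higher in Tsc1-null cells (0.59 ± 0.065). Its 24 h rise in Tsc2-null cells (0.27 ± 0.072, adjusted p = 0.00486) was lost without the first 24 h array (adjusted p = 0.0924).

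Proteins that build, regulate or ride on the proteasome were split between the directions under vehicle. Of 18 measured genes (21 listed) 7 were higher and 8 lower in Tsc2-null cells (median -0.06, where 23.6% of all genes were higher and 21.3% lower) and 8 higher and 7 lower in Tsc1-null cells (median 0.05, where 21.3% were higher and 20.8% lower). Psmg2, a chaperone of alpha ring assembly, was lower in both (-1.19 ± 0.074 and -1.49 ± 0.074), as were the ubiquitin shuttle Ubqln2 in Tsc2-null cells (-1.24 ± 0.090) and the proteasomal deubiquitinase Usp14 in Tsc1-null cells (-0.90 ± 0.081). After 24 h of rapamycin 10 were lower and 3 higher in Tsc2-null cells (median -0.19, where 18.1% of all genes were lower and 17.4% higher) and 12 lower and none higher in Tsc1-null cells (median -0.43, where 18% were lower and 11.6% higher). Uchl5, another proteasomal deubiquitinase, fell by 1.24 and Txnl1, a thioredoxin-like protein of the cap, by 0.96 on the log2 scale in Tsc2-null cells. In Tsc1-null cells Psmg1, the partner of Psmg2, fell by 0.79 and the shuttle factor Rad23b by 0.56.

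Of 18 measured genes (19 listed) that process, bind or compete with Nfe2l1, 7 were higher and 3 lower in each null line (median 0.01 for Tsc2-null, 0.12 for Tsc1-null), where 23.6% and 21.3% of all genes were higher and 21.3% and 20.8% lower. Bach1, a repressor at the same element, and Nfe2l3, the closest relative of Nfe2l1, were higher in Tsc2-null cells (1.09 ± 0.092 and 1.63 ± 0.15). Skp1, a part of ubiquitin ligases, and Mafg, a small Maf partner, were higher in Tsc1-null cells (0.74 ± 0.066 and 0.60 ± 0.081). After 24 h of rapamycin 7 were lower in each line, with 4 higher in Tsc2-null cells (median -0.02) and 1 higher in Tsc1-null cells (median -0.13), where 18.1% and 18% of all genes were lower and 17.4% and 11.6% higher. In Tsc2-null cells Nfe2l3 rose by 1.89 and Ngly1, the enzyme that strips sugars from Nfe2l1, by 0.74, and in Tsc1-null cells Sel1l, of the retrotranslocation machinery, fell by 0.51 and Mafg by 0.53 on the log2 scale.

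Of 9 measured ubiquitin-activating and conjugating enzymes (15 genes listed, the ubiquitin genes themselves among those not measured alone) 3 were higher and 2 lower in Tsc2-null cells (median 0.12) and 2 higher and 4 lower in Tsc1-null cells (median -0.11). With 23.6% of all genes higher and 21.3% lower in the first comparison, and 21.3% and 20.8% in the second, most of these counts are near the background. Ube2d1 was lower (-0.94 ± 0.083) and Ube2s higher (0.41 ± 0.061) in Tsc2-null cells, and Ube2c and Ube2l6 were lower in Tsc1-null cells (-0.75 ± 0.086 and -0.79 ± 0.11). After 24 h of rapamycin 6 were lower and 1 higher in Tsc2-null cells (median -0.29), and 2 lower and 1 higher in Tsc1-null cells (median -0.12), where 18.1% and 18% of all genes were lower and 17.4% and 11.6% higher. Ube2c and Ube2s, mitotic conjugating enzymes, fell by 0.95 and 0.93 on the log2 scale in Tsc2-null cells, whereas in Tsc1-null cells Ube2c rose by 1.03 and Ube2k fell by 0.54.

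More than 1 probe set was present for 18 of the 31 core and cap subunits, which allows a look at how the values depend on the probes. Psmb3 gave 0.85 with both of its probe sets for Tsc2-null against wild type, and -0.78 and -0.81 for 24 h of rapamycin in that line. Psmd4 gave 1.15 and 1.23 for Tsc1-null against wild type with its brightest pair, and 0.49 with its dimmest. The 24 h fall in Tsc1-null cells was less even. Psmb4 fell by 0.41 with the brightest probe set and gave 0.11 with the next, and Psmc4 fell by 0.64 and gave -0.04. Both alternatives are bright, while the median level was 10.55 for the next probe sets and 11.93 for the brightest. The cause of these gaps was not tested. Of the next brightest probe sets 4 lay among the dimmest 40% of genes. With the next brightest probe set read where there was one, 20 in place of 31 subunits were lower at 24 h in Tsc1-null cells. That count was adjusted over 34945 probe sets in place of 18193 genes, so it differs from the main count in more than the probes. The 13 subunits with 1 probe set were read from it again, so only the other 18 were checked by a second probe set.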

How the data were processed

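RNA from 25 culture plates was measured on Affymetrix mouse genome arrays. The log2 expression values are as deposited by the authors, whose tools were RMA and limma, per the submitters' processing notes, which state no version or chip definition. RMA is a method of background correction, quantile normalization and probe-set summary. RMA pulls arrays to 1 distribution, so differences are relative to the other transcripts. A second deposited table of log2 ratios, in which low values were set to a floor, served only as an alternative.

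Of 45101 probe sets, 64 controls were left out, 34945 named 1 gene and 932 named several, which were not used. Each of 18193 genes was represented by its probe set with the highest mean over the 25 arrays. The model, fitted with limma 3.58.1 in R 4.3.3 to all 25 arrays, had a mean per group (11 groups), with 14 residual degrees of freedom. P-values of its two-sided moderated test were adjusted by Benjamini-Hochberg over all genes, with 0.05 as the threshold. The F test covered the 4 rapamycin times of a line. Arrays have no read depth, and precision rests on how many were run. On simulated data with 18193 genes the Tsc2-null comparison recovered 89% of log2 changes of 0.5 and 100% of those of 1. The 24 h comparison in Tsc1-null cells, with 2 treated arrays, recovered 76% and 100%. Unchanged genes gave 10 and 12 calls. The simulation used independent normal noise and changed 100 genes by each amount, far fewer than were called in the data. These rates therefore need not hold for the data. The number of a plate was not treated as pairing: correlations of same-numbered arrays' deviations ran from -0.38 to 0.30.

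Values, for some genes only a difference or a range, are given by rule for Nfe2l1, the constitutive and immunoproteasome catalytic subunits, Psme1, Psma8, Psmb11 and Psmc3ip. The rule adds the 4 largest rises and 4 largest falls among called members whose groups did not overlap. These were taken for each null line against wild type and for 24 h of rapamycin. For each further list it adds the 2 genes with the smallest p. Other genes named were chosen after their values were seen. The members and lists were chosen with earlier results of these data known. Times and groups follow the sample titles, since a free-text field of 2 Tsc1-null groups gives 14 h and 11 h where the title gives 24 h and 12 h. Alternatives covered normalization, probe-set choice, dim genes, the variance model, the replicate block and leaving out each array. Figures were drawn with matplotlib 3.10.9.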

Additional observations from a re-analysis of the deposited data

Results flagged for a closer look

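The 24 h rapamycin effect differed between the null lines, by the interaction test of limma with Benjamini-Hochberg adjustment, for 8 of the 45 genes, where the same test called 20.2% of all genes, so the count itself is near the background. The Tsc1-null effect minus the Tsc2-null effect was 0.46 for Psma1 (adjusted p = 0.00360), from effects of -0.43 and -0.89. It was -0.32 for Psma7 (adjusted p = 0.0493; -0.71 and -0.39) and -0.43 for Psmd8 (adjusted p = 0.00402; -0.23 and 0.20). Among immunoproteasome subunits it was -0.66 for Psmb8 (adjusted p = 0.0186; -0.40 and 0.27) and -0.49 for Psmb10 (adjusted p = 0.0150; -0.34 and 0.15). For the activator Psme1 it was -0.49 (adjusted p = 0.00315; -0.06 and 0.43). The genes matched by spelling gave 0.85 for Psmc3ip (adjusted p = 0.000178; 0.45 and -0.40) and -0.44 for Psme3ip1 (adjusted p = 0.00332; -0.17 and 0.27). Calls that rest on 1 array are given with each gene above.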

How the results depend on the processing

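With the next brightest probe set, the core and cap medians were 0.34 for Tsc2-null against wild type, -0.089 for Tsc1-null against Tsc2-null, -0.41 for 24 h in Tsc1-null and -0.15 for Tsc1-null at 24 h against wild type. Counts of lower subunits were 17 at 12 h in Tsc2-null, 15 at 12 h and 20 at 24 h in Tsc1-null and 13 for Tsc1-null at 24 h against wild type, and the interaction called 5. All of these medians and counts include the 13 subunits with 1 probe set, read from it again. The p-values here were adjusted over 34945 probe sets in place of 18193 genes, which also bears on the counts. Of the signs that turned, 3 passed the threshold: Psmd6 in Tsc1-null against wild type (-0.31, adjusted p = 0.0250) and Psmb1 at 24 h in Tsc1-null (0.22, adjusted p = 0.0444) and in the interaction (0.42, adjusted p = 0.0127). The others did not, and were found for Psma1 (0.11), Psmd2 (0.014) and Psmd7 (0.13) between the null lines; for Psma3 at 24 h in Tsc2-null (0.040); for Psmd7 at 6 h (0.069), Psma3 (0.0096), Psmd2 (0.045) and Psmd7 (0.084) at 12 h, and Psmb4 (0.11) and Psmb8 (0.14) at 24 h in Tsc1-null. They were also found for Psmb8 (0.072) in the interaction, Psmd2 in Tsc2-null at 24 h against wild type (0.077), and Psmc4 (0.35), Psmc6 (0.10), Psmd2 (0.078), Psmd9 (0.045) and Psme3 (0.011) in Tsc1-null at 24 h against wild type. Dimmer probe sets have less signal over background; the cause was not tested. With the mean of all probe sets the medians were 0.28 (Tsc2-null against wild type), -0.40 and -0.37 (24 h in Tsc2-null and Tsc1-null) and -0.23 (Tsc1-null at 24 h against wild type), and Psmc4 read 0.044 in the last. With 64 added before the log, 1 subunit was lower at 2 h in Tsc1-null and the interaction called 6. The deposited ratio table gave 1 lower at 2 h and 7 at 6 h in Tsc1-null. Its fit held 9525 genes, since those with a ratio of 0 on every array were left out, and p-values were adjusted over these. The shares of all genes called under these alternatives, and with the replicate block below, are not given here.

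Leaving out each array in turn gave 2 to 6 lower subunits at 6 h in Tsc2-null (2 without the second 6 h array), 7 to 11 at 6 h in Tsc1-null (7 without the second 6 h array) and 17 to 25 at 12 h in Tsc1-null (17 without the first 12 h array). Of 335 calls over 630 tests of the 45 genes, 58 were lost without at least 1 array and 12 were gained. With the replicate number as a block, 28 subunits were higher in Tsc2-null and 19 in Tsc1-null against wild type, and 29 and 31 were lower at 24 h. Correlations of same-numbered arrays were of mixed sign, above 0.1 for both pairs at 6 h in Tsc2-null (0.13 and 0.23) and for Tsc2-null at 24 h against wild type (0.30 and 0.22), and in no comparison with 3 pairs for all of them.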
